A study of Trichoderma reesei with 4 samples.

Results

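The step examined here is the last of a sporulation course of the filamentous ascomycete Trichoderma reesei, from 6 h to 9 h. It was defined as the deposited mean log2 expression at 9 h minus that at 6 h for every feature of the array, which takes 2 of the 4 samples of the series and all 9126 features. All samples were of strain QM9414, an early mutant that the labels describe as producing little cellulase, grown on cellophane over malt extract agar to bring about conidiation. The groups were cultures at 9 h and at 6 h of sporulation, with cultures at 3 h and a mycelium control at 0 h giving the earlier course, and each sample stands for 2 biological replicas. No culture kept from sporulating was sampled beside them, so changes that belong to sporulation and changes that belong to longer time on the plate cannot be told apart. In such cultures fewer cells of a type and less RNA per cell cannot be told apart either. Levels are log2 array signals, given as the mean ± SD of 2 replicas, and a difference of 1 is a 2-fold change.

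Conidia are the asexual spores of this fungus. They are cut off from branched hyphae, the conidiophores, and they become pigmented and coated with hydrophobins, small secreted proteins that make the surface water-repellent. Genes for fungal pigments and other secondary metabolites often lie side by side in the genome. T. reesei is also known for secreting cellulases and hemicellulases, enzymes that break down plant cell walls.

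The step was led by few strong rises, and its falls were milder. A feature is called here when limma's moderated test gives an adjusted p under 0.05 and the change is at least 2-fold, a log2 change of 1. Of the 9126 features 176 were called, or 1.93%. At 9 h 102 features (1.12%) were higher than at 6 h, and 74 (0.811%) were lower. The median log2 change was 1.38 among the features that rose and -1.19 among those that fell. As measured, 20 features (0.219%) were at least 4-fold higher, and 0 were at least 4-fold lower. In 8 falls the 9 h level was at background, read as described below, so their size has only a lower bound. The same holds for 5 rises with a 6 h level at background. Without the fold condition the balance was the other way, with 486 features higher (5.33%) and 728 lower (7.98%) by adjusted p alone. Of these higher features 21% reached 2-fold, and of the lower ones 10.2% did.

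For comparison, the median size of a log2 change over all features was 0.317 in the step ending at 3 h, 0.208 in that ending at 6 h and 0.204 in that ending at 9 h. The largest 5% of changes began at a size of 1.55, 1.03 and 0.78 in these steps. The last step thus had a shorter tail than the step before it at nearly the same median, and these steps share the arrays of the time between them. The median level was 11.56 at 9 h and 11.55 at 6 h, with a median SD of 0.0821 and 0.0898. Calls were more frequent at low levels. Among the 2282 dimmest features by mean level (up to 9.64) 2.54% rose and 1.84% fell. Among features from a mean level of 12.90 upward 0.131% rose and 0.131% fell.

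**Figure D1:**
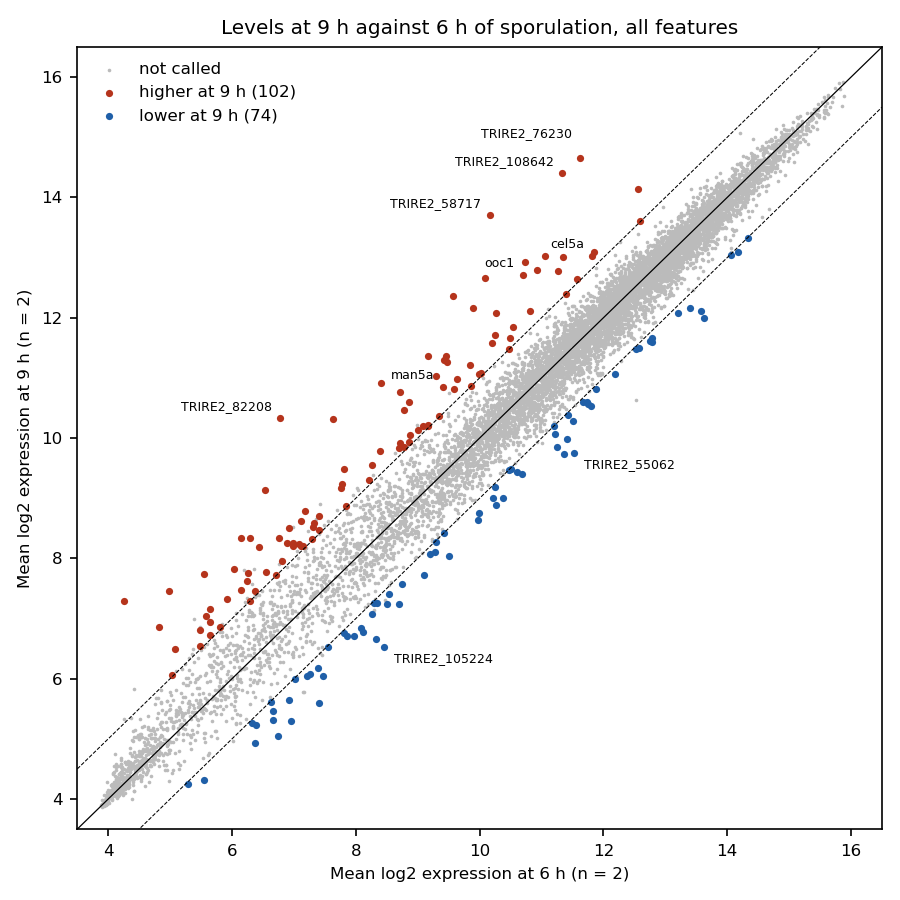
Mean log2 expression at 9 h (vertical axis) against 6 h (horizontal axis) of all 9126 features, each the mean of 2 replicas. Red points are the 102 features called higher at 9 h and blue points the 74 called lower, with dashed lines at a 2-fold change; the red points reach a log2 change of 3.56 and the blue points -1.93.

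The largest rise was that of TRIRE2_82208, which has no symbol in the gene table. Its replicas, rebuilt from the deposited mean and SD, lay at 10.22 and 10.45 at 9 h and at 6.68 and 6.87 at 6 h. The rise was 11.8-fold, a log2 change of 3.56 (SE 0.18, adjusted p = 1.45e-04). Nearly as large was the rise of TRIRE2_58717, with replicas at 13.63 and 13.78 at 9 h and 10.06 and 10.25 at 6 h, a log2 change of 3.55 (SE 0.12, adjusted p = 1.65e-05). In both features the replicas of a time lay close together and the times were far apart.

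Differences above 3 on the log2 scale were also measured for TRIRE2_108642, TRIRE2_76230 and TRIRE2_124079. TRIRE2_108642 was at 14.40 ± 0.21 at 9 h and 11.33 ± 0.00087 at 6 h, which made an 8.39-fold rise (adjusted p = 7.39e-04). TRIRE2_76230 was at 14.65 ± 0.51 at 9 h and 11.62 ± 0.12 at 6 h, which is an 8.15-fold rise (adjusted p = 6.03e-04) into the brightest part of the scale. TRIRE2_124079 stood apart from these because its 6 h level was at background, so its place in the order of size is not settled. It was at 7.29 ± 0.50 at 9 h and 4.25 ± 0.12 at 6 h.

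Background was read from 3 array features named for the MAT1-1 mating-type genes, which this strain, of the other mating type, does not carry. The highest of their means was 5.42 at 9 h and 5.18 at 6 h. At 6 h 5 of the features that rose were no brighter than the highest of these, so their folds have only a lower bound. Counted from the highest MAT1-1 level at 6 h, TRIRE2_124079 was at least 4.3-fold higher at 9 h, TRIRE2_64125 at least 4.82-fold and TRIRE2_66077 at least 3.19-fold. The bounds of the other 2 were 2.47-fold for TRIRE2_70919 and 1.83-fold for TRIRE2_103156. Levels of TRIRE2_64125 over the course were 4.62 ± 0.098, 4.62 ± 0.044, 4.99 ± 0.29 and 7.45 ± 0.072 at 0, 3, 6 and 9 h. It was near background at the 3 earlier times and clear of it only at 9 h.

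The remaining features described among the 12 largest rises had levels above background at both times. TRIRE2_112258 was at 12.36 ± 0.091 at 9 h and 9.57 ± 0.075 at 6 h, or a 6.93-fold rise (adjusted p = 1.65e-05), and TRIRE2_52476 at 10.31 ± 0.11 at 9 h and 7.63 ± 0.076 at 6 h (6.39-fold, adjusted p = 4.62e-04). TRIRE2_66788 rose 6.01-fold, TRIRE2_23171 5.68-fold and TRIRE2_109779 4.82-fold. The replicas of the 2 times did not overlap in any of them. TRIRE2_108975 was the least certain of the 12. It was at 9.14 ± 0.44 at 9 h and 6.53 ± 0.39 at 6 h, with a log2 change of 2.61 (SE 0.69, adjusted p = 0.0446), and its SDs at 0 h and 3 h were 1.26 and 1.30. With quantile normalization of the means its adjusted p became 0.0515, which ends the call.

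Among features with a symbol, ooc1 rose most. Its replicas lay at 12.62 and 12.79 at 9 h and at 10.48 and 10.92 at 6 h, so that it rose 4.01-fold (adjusted p = 0.00133). Over the course its level was 7.48 ± 0.28, 10.49 ± 0.16, 10.70 ± 0.31 and 12.71 ± 0.12 at 0, 3, 6 and 9 h. The gene thus rose again after a level that differed little between 3 h and 6 h.

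**Figure D2:**
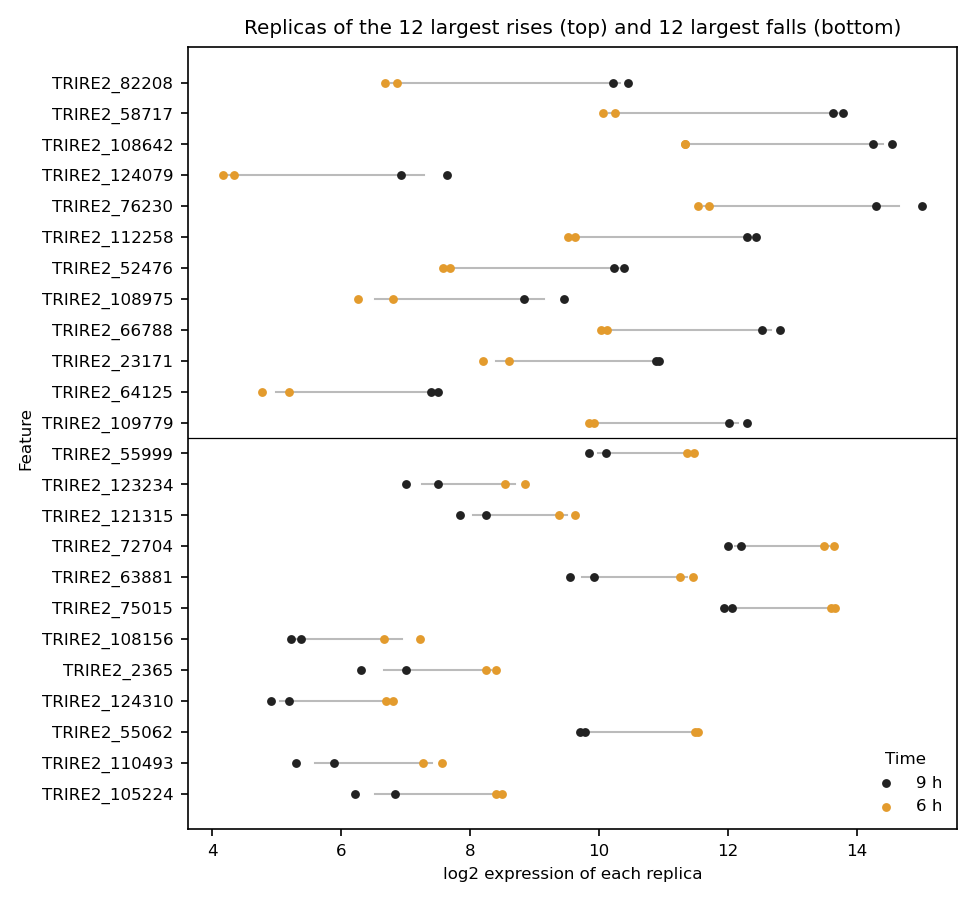
Rebuilt log2 expression of the single replicas at 9 h (black) and 6 h (orange) for the 12 largest rises above the line and the 12 largest falls below it, ordered by measured difference, which for TRIRE2_124079, TRIRE2_64125, TRIRE2_124310 and TRIRE2_108156 includes a level at background; grey lines join the means. In all 24 features the replicas of the 2 times are apart, and the rises span from a log2 change of 3.56 to 2.27 against falls of -1.93 to -1.44.

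All 176 called features had replicas that did not overlap between 9 h and 6 h, where 64.6% of all features had such replicas. The calls rest on the same means and SDs, so this describes them and is no separate support. The smallest gap among the called features was 0.56 on the log2 scale. Just inside the 2-fold limit lay TRIRE2_38080 with a log2 change of 1.002 and just outside it TRIRE2_32712 with 0.99. On the lower side the limit fell between TRIRE2_29756 at -1.002 and TRIRE2_42063 at -0.995.

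The features that rose followed different courses before 6 h. Of the 102, 74 had their highest mean of the course at 9 h, 16 had it at 3 h and 12 had it at 0 h. Comparing 3 h with 0 h shares no array with this step. In it 43 of the 102 features were called higher, or 42.2%, against 6.77% of all features, and 6 were called lower, or 5.88% against 4.8%. Over all 9126 features the log2 changes of the 2 comparisons had a Pearson correlation of 0.14 across genes, given as a description. TRIRE2_106538 is an example of an early riser that rose again, at 6.54, 12.13, 12.56 and 14.13 at 0, 3, 6 and 9 h.

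Some of the features that rose were picked out for having their lowest mean at 6 h. They were 31 of the 102, and 28 of these stayed within 2-fold of their 0 h level at both 3 h and 9 h. Their median level was 7.93, 7.97, 6.81 and 8.20 at 0, 3, 6 and 9 h, and the low value at 6 h follows from how they were picked. TRIRE2_108975, with 8.46, 8.43, 6.53 and 9.14 at 0, 3, 6 and 9 h, had the largest change among them. Of the 31, 29 were among the 2282 dimmest features of the array, as were 29 of the 71 other rises. At 3 h 0 of these 31 features were called higher than at 0 h, and 43 of the 71 others were. This contrast is partly built in, since 60 of the 102 rises had their lowest mean at 0 h. The medians of those 71 were 7.30, 9.44, 9.30 and 10.85 at the successive times. Among all 2282 dim features the median log2 change was 0.0389 in this step and -0.0752 in the step before it. The part of a shift of dim features in the 6 h arrays in these 31 rises was not tested.

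The measured falls were milder than the rises and began from different levels. The largest was that of TRIRE2_105224, with replicas at 6.21 and 6.83 at 9 h and 8.41 and 8.50 at 6 h. It was 3.82-fold lower at 9 h, a log2 change of -1.93 (SE 0.18, adjusted p = 0.00141). Its course was a steady decline, from mycelium on, at 11.65, 10.63, 8.45 and 6.52 at 0, 3, 6 and 9 h. The next largest, TRIRE2_110493, was at 5.597 ± 0.41 at 9 h and 7.41 ± 0.21 at 6 h (3.52-fold lower, adjusted p = 0.0303), with replicas further apart.

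Several falls came after a maximum at 3 h. TRIRE2_55062 had replicas at 9.71 and 9.79 at 9 h and 11.49 and 11.54 at 6 h and was 3.41-fold lower at 9 h (adjusted p = 1.73e-04). Its level over the course was 9.42 ± 0.081, 12.71 ± 0.053, 11.52 ± 0.032 and 9.75 ± 0.056 at 0, 3, 6 and 9 h, so at 9 h it was close to its mycelium level again. TRIRE2_75015, with replicas at 11.93 and 12.06 at 9 h and 13.60 and 13.65 at 6 h, and TRIRE2_72704, at 12.11 ± 0.15 at 9 h and 13.57 ± 0.11 at 6 h, followed the same form with 3 h means of 14.41 and 14.32. They were 3.1-fold and 2.76-fold lower at 9 h than at 6 h (adjusted p = 7.15e-04 and 7.15e-04).

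Other falls continued a decline from mycelium or followed a higher level at 6 h. TRIRE2_123234 was at 13.19, 9.26, 8.70 and 7.25 at 0, 3, 6 and 9 h, with a log2 change of -1.45 (SE 0.25, adjusted p = 0.0125). TRIRE2_121315 fell to 8.04 ± 0.28 at 9 h, against 9.51 ± 0.17 at 6 h, and TRIRE2_2365 to 6.66 ± 0.50 at 9 h, against 8.32 ± 0.11 at 6 h. TRIRE2_63881 had its maximum at 6 h, with 9.74 ± 0.27 at 9 h and 11.36 ± 0.14 at 6 h (adjusted p = 0.00133). In 8 falls the 9 h level was no brighter than the MAT1-1 features, among them TRIRE2_124310 (at least 2.5-fold lower, adjusted p = 9.18e-04) and TRIRE2_108156 (at least 2.88-fold lower, adjusted p = 0.0454).

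Of the 74 features that fell, 47 had their lowest mean of the course at 9 h and 24 at 0 h. Highest means lay at 6 h for 35, at 0 h for 20 and at 3 h for 19. In the comparison of 3 h with 0 h, 24 of the 74 were called higher, or 32.4% against 6.77% of all features. Called lower there were 13, or 17.6% against 4.8%. Early rises were therefore frequent among the features that fell in this step as well as among those that rose, with the spread of each feature shared by both sets of calls.

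Some of the features that moved lay next to each other in the genome. Of the 9122 features with a gene identifier, 9094 were found in the gene table of the QM6a assembly v2.0, which gives the order of genes. All 102 rises and 72 of the 74 falls were among them. Of the rises 11, or 10.8%, had a rise as a direct neighbour, where 2.19% of all features in the table had a rise beside them. Of the falls 8, or 11.1%, had a fall beside them, where 1.53% of all features had. Over 9022 pairs of adjacent features the log2 changes had a Pearson correlation of 0.12, and of features 10 places apart -0.02, both given as descriptions with no test. No gene models overlapped within any of the 17 groups of 2 or more called neighbours.

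A run was taken as at least 3 features called in the same direction with at most 2 other genes between them. There were 3 runs of rises with 9 members and 2 runs of falls with 6. The numbers in the identifiers are a poor guide to position, since 12% of features with successive numbers were adjacent in the gene table.

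The first run was made of 3 adjacent features, TRIRE2_82208, TRIRE2_52476 and TRIRE2_124079. Levels of TRIRE2_82208 were 5.35 ± 0.011, 6.15 ± 0.38, 6.78 ± 0.13 and 10.33 ± 0.17 at 0, 3, 6 and 9 h. TRIRE2_52476 took a like course, at 5.12 ± 0.33, 6.78 ± 0.26, 7.63 ± 0.076 and 10.31 ± 0.11 at 0, 3, 6 and 9 h. TRIRE2_124079 stayed at background until 6 h, with 4.12 ± 0.11, 4.25 ± 0.047, 4.25 ± 0.12 and 7.29 ± 0.50 at 0, 3, 6 and 9 h. TRIRE2_82208 and TRIRE2_52476 rose by log2 values of 3.56 and 2.68, and TRIRE2_124079 rose at least 4.3-fold. The features on both sides were not called. Of these, TRIRE2_112105 had a change of -0.52, opposite in sign, which passed the adjusted p (0.0455) but not 2-fold. TRIRE2_112112 on the other side had a change of -0.08.

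The second run held TRIRE2_3055, TRIRE2_58717 and TRIRE2_76230 within 5 successive genes. TRIRE2_3055 was at 12.64 ± 0.044 at 9 h and 11.57 ± 0.098 at 6 h (2.09-fold, adjusted p = 0.0107). The adjacent pair TRIRE2_58717 and TRIRE2_76230 rose far more, by log2 values of 3.55 and 3.03, after levels at 0 h of 7.34 and 6.47. Between the members, TRIRE2_58639 had a log2 change of 0.79, which passed the adjusted p (0.0112) but not 2-fold, and TRIRE2_105269 one of 0.00, which did not pass.

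The third run held TRIRE2_58285, TRIRE2_58289 and TRIRE2_58953 within 4 successive genes. Their replicas lay at 11.17 and 11.35, 10.68 and 10.87 and 11.93 and 12.23 at 9 h, against 9.42 and 9.53, 8.43 and 9.00 and 10.23 and 10.31 at 6 h. The rises were 3.46-fold, 4.16-fold and 3.52-fold (adjusted p = 0.00456, 0.00122 and 4.62e-04). TRIRE2_58289 was at background at 0 h and 3 h, with 5.08 and 5.04. At a distance of 2 places from this run lies TRIRE2_105224, the feature with the largest fall of the step. The gene between them, TRIRE2_120872, had a change of -0.05.

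**Figure D3:**
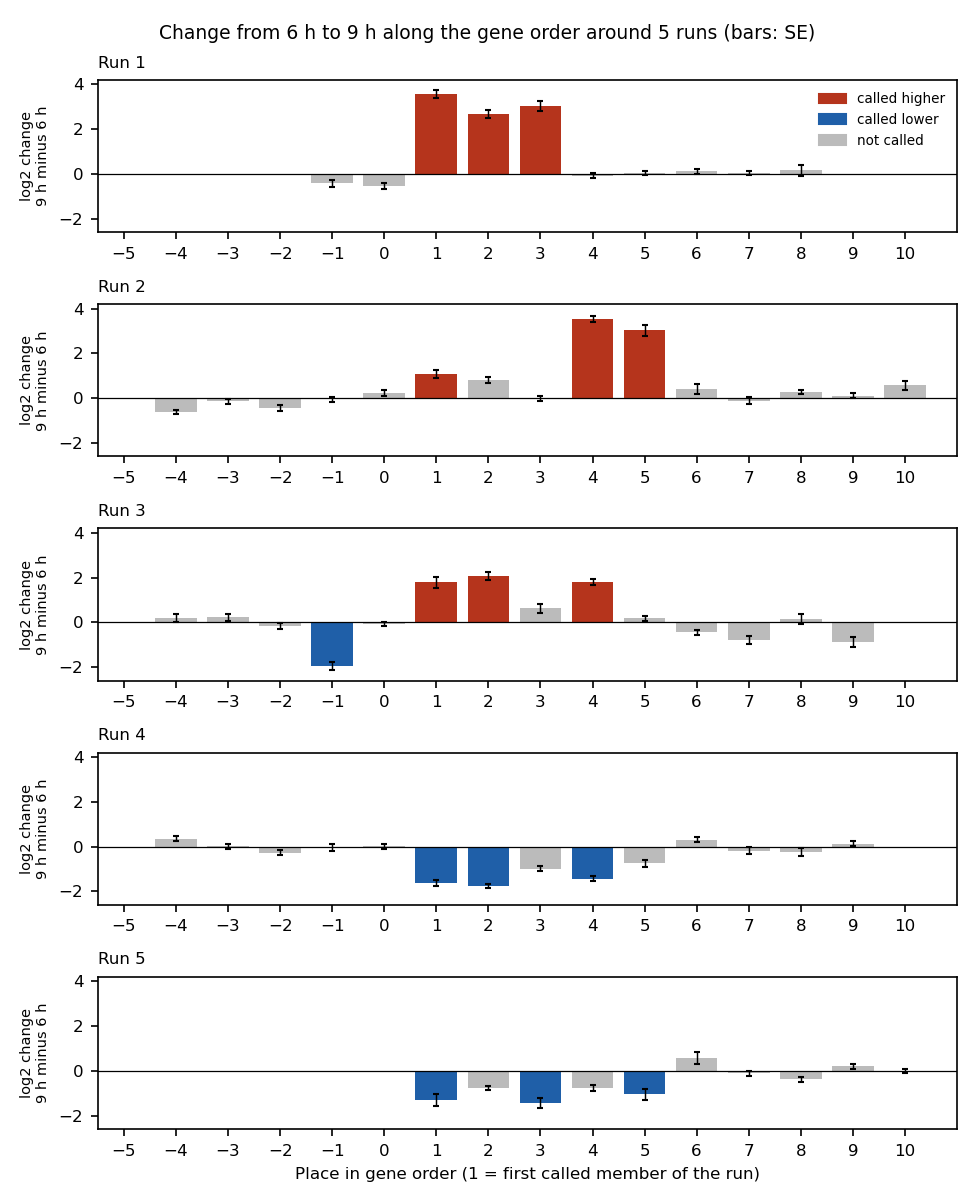
Log2 change from 6 h to 9 h (bars, with SE) by place in the gene order around the 5 runs, where place 1 is the first called member. Red bars are called higher, blue bars called lower and grey bars not called; runs 1 to 3 rise by up to 3.56 and runs 4 and 5 reach -1.77, and the blue bar beside run 3 is TRIRE2_105224 at -1.93.

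Both runs of falls held genes that moved together beyond the called members. In the fourth run, TRIRE2_75015, TRIRE2_55062 and TRIRE2_55999 fell by 1.63, 1.77 and 1.44 on the log2 scale. The fourth gene within the run, TRIRE2_55077, was at 12.46 ± 0.24 at 9 h and 13.44 ± 0.079 at 6 h, a log2 change of -0.98 (SE 0.13, adjusted p = 0.00466), which ended just short of 2-fold. All 4 had their highest mean at 3 h, between 12.67 and 14.55, and lay within 1 log2 unit of their 0 h level at 9 h. TRIRE2_55999, for example, was at 9.27 ± 0.010, 12.67 ± 0.056, 11.42 ± 0.075 and 9.98 ± 0.18 at 0, 3, 6 and 9 h. Beside the run, TRIRE2_55105 was not called but had a change of -0.75 that passed the adjusted p (0.0257). It was at 10.28, 11.57, 11.17 and 10.42 at 0, 3, 6 and 9 h. TRIRE2_75012 on the other side had a change of 0.02 (adjusted p = 0.911).

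The fifth run spanned 5 successive genes, all with negative changes that passed the adjusted p, of which 3 passed 2-fold. TRIRE2_70973 was at 9.40 ± 0.27 at 9 h and 10.69 ± 0.14 at 6 h (2.45-fold lower, adjusted p = 0.0203). TRIRE2_70991 was at 6.52 ± 0.23 at 9 h and 7.55 ± 0.17 at 6 h (2.05-fold lower, adjusted p = 0.0338). TRIRE2_70967, at 4.94 ± 0.14 at 9 h and 6.37 ± 0.040 at 6 h, ended at background, so its fall is at least 1.92-fold. The genes between them, TRIRE2_70998 and TRIRE2_70984, had changes of -0.78 (adjusted p = 0.00395) and -0.75 (adjusted p = 0.0177). TRIRE2_70967 had risen earlier, with 8.11 at 3 h and 4.59 at 0 h.

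**Figure D4:**
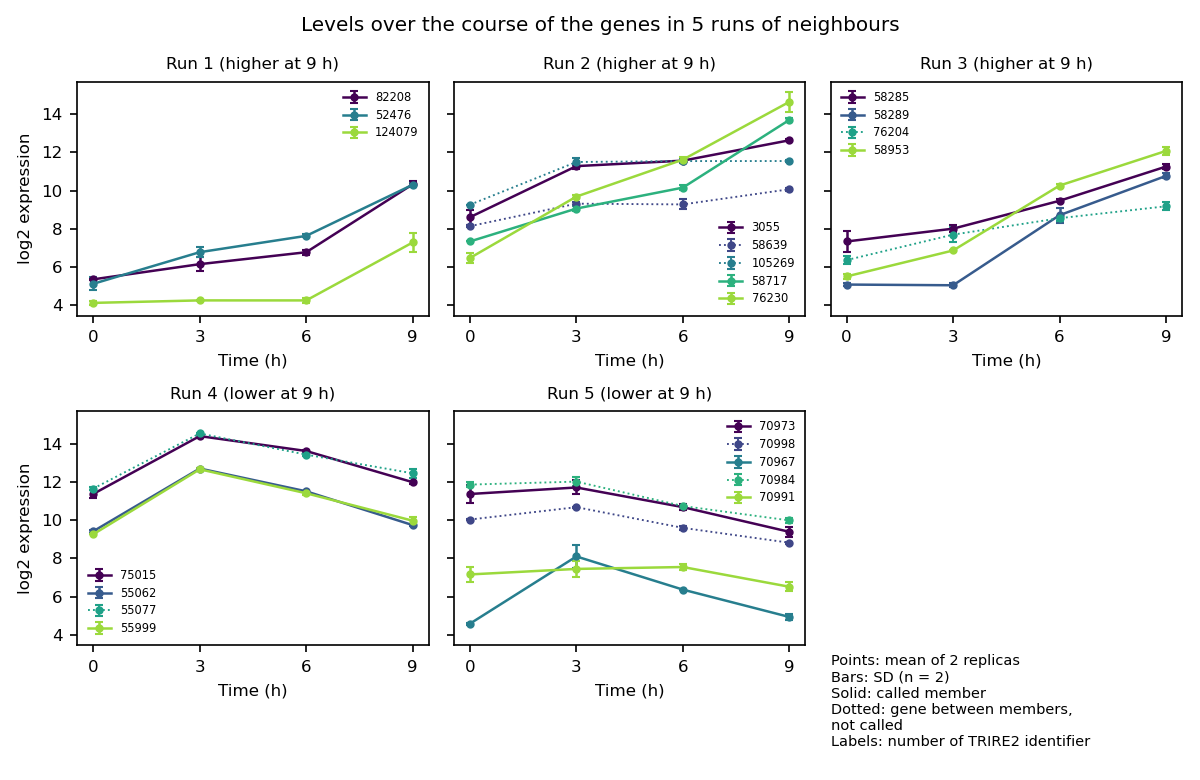
Log2 expression over 0, 3, 6 and 9 h of the genes in the 5 runs, as means of 2 replicas with SD bars; solid lines are called members and dotted lines genes between them that were not called. Genes of runs 1 to 3 have their highest means at 9 h, TRIRE2_105269 in run 2 being level with its 6 h mean, and the 4 genes of run 4 peak together at 3 h.

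Neighbours did not always move the same way. There were 10 adjacent pairs called in the same direction and 3 called in opposite directions. TRIRE2_106537 was at 9.00 ± 0.040 at 9 h and 10.21 ± 0.21 at 6 h, whereas TRIRE2_106538 beside it was at 14.13 ± 0.20 at 9 h and 12.56 ± 0.23 at 6 h, with log2 changes of -1.21 and 1.57 (adjusted p = 0.00453 and 0.00233). TRIRE2_106476 and TRIRE2_121415 changed by -1.02 and 1.70, and TRIRE2_60445 and TRIRE2_106556 by -1.12 and 1.03. The symbol gene ooc1 had a neighbour that rose with it, TRIRE2_66077, which was at 6.86 ± 0.33 at 9 h and 4.82 ± 0.26 at 6 h. These pairs were chosen after their values were seen.

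Of the 235 features with a symbol, 6 rose by limma's test with the 2-fold limit, or 2.55%, beside 1.12% of all features, and 0 fell, beside 0.811%. At an adjusted p alone 20 were higher and 11 lower, where 5.33% and 7.98% of all features were. Cellulase and hemicellulase genes made up most of the 6. Of the 9 genes in the cellulase list, which takes only genes with a symbol, 4 rose, where 1.12% of all features did. They were the endoglucanase genes cel5a, cel7b and cel12a and the lytic polysaccharide monooxygenase gene cel61b. The median log2 change of the list was 0.874, against -0.00835 over all features.

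The rises of these enzyme genes were small beside their earlier swings. The mannanase gene man5a had replicas at 10.75 and 10.95 at 9 h and 9.39 and 9.44 at 6 h, or 2.71-fold more (adjusted p = 0.00461). Over the course it was at 7.76, 11.83, 9.41 and 10.85 at 0, 3, 6 and 9 h. Endoglucanase gene cel5a was at 13.03 ± 0.090 at 9 h and 11.82 ± 0.12 at 6 h (2.31-fold, adjusted p = 0.0192), with 14.92 at 3 h and 6.85 at 0 h. For cel7b the levels were 10.20 ± 0.26 at 9 h and 9.16 ± 0.021 at 6 h (adjusted p = 0.00417), for cel61b 10.87 ± 0.26 at 9 h and 9.85 ± 0.25 at 6 h (adjusted p = 0.0393) and for cel12a 12.39 ± 0.012 at 9 h and 11.39 ± 0.14 at 6 h (adjusted p = 0.0168). All 5 remained below their 3 h means. The change of cel12a was 1.004 and became 0.999 with quantile normalization of the means, which ends its call.

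Other genes of the cellulase list stayed under 2-fold. The cellobiohydrolase gene cel7a, at 15.07 ± 0.10 at 9 h and 14.20 ± 0.13 at 6 h, and the glucuronoyl esterase gene cip2, at 9.93 ± 0.067 at 9 h and 9.07 ± 0.14 at 6 h, had changes of 0.87 and 0.86 that passed the adjusted p (0.00641 and 0.00387). Changes of cip1, cel61a and cel5b were 0.52, 0.08 and -0.21 and did not pass (adjusted p = 0.254, 0.821 and 0.264). In the hemicellulase list of 3 the acetyl xylan esterase genes axe1 and axe2 had changes of 0.36 and 0.00 that did not pass.

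Among the 5 beta-glucosidase genes, whose products act on cellobiose, 0 were called. Both directions appeared at the adjusted p alone, by which 5.33% of all features were higher and 7.98% lower. The genes cel3a, at 9.03 ± 0.044 at 9 h and 8.26 ± 0.17 at 6 h, cel3c and cel1b were higher by 0.77, 0.69 and 0.51 (adjusted p = 0.0391, 0.0107 and 0.0319). The gene cel3b was lower, at 13.46 ± 0.038 at 9 h and 14.10 ± 0.090 at 6 h, with a change of -0.64 (adjusted p = 0.018). The change of cel1a was -0.03 (adjusted p = 0.937).

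For regulators of these enzymes the median change was 0.159 over 7 genes. Of the 7, 0 were called, and with 1.93% of all features called such a count is near the background. The gene hap2, a subunit of a complex that binds CCAAT boxes, passed the adjusted p, with a change of 0.46 (0.0315). The main activator gene xyr1 was at 13.23 ± 0.061 at 9 h and 13.05 ± 0.11 at 6 h and the carbon repressor gene cre1 at 14.97 ± 0.034 at 9 h and 14.70 ± 0.052 at 6 h, with changes of 0.18 and 0.27 (adjusted p = 0.247 and 0.0847).

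The marker of conidiation named by the labels was above its mycelium level at both times and differed little between them. The marker enzyme gene lxr1, for a D-mannitol dehydrogenase, was at 13.89 ± 0.12 at 9 h and 13.94 ± 0.14 at 6 h, a difference of -0.05 (adjusted p = 0.835). Its mycelium level at 0 h was 11.96. The hydrophobin gene hfb2 was at 14.34 ± 0.0024 at 9 h and 13.82 ± 0.10 at 6 h, a difference of 0.53 that did not pass (adjusted p = 0.119, but 0.0139 with 6 h and 9 h fitted alone), and at 11.16 in mycelium. For hfb3 the levels were 14.01 ± 0.091 at 9 h and 13.45 ± 0.18 at 6 h, a difference of 0.55 that did not pass (adjusted p = 0.138, but 0.0185 with 6 h and 9 h fitted alone), and 9.63 in mycelium. The third gene, hfb1, was at 8.04 ± 0.12 at 9 h and 7.97 ± 0.17 at 6 h, near its mycelium level of 8.22. The other member of the conidiation list is ooc1, which rose as described above. It was placed in this list by symbol alone, the labels do not name it as a marker, and a role in conidiation was not tested.

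Lists for basic functions held 0 called genes, which at 1.93% of all features called is near the background for lists of this size. Of 42 ribosomal protein genes 0 passed the adjusted p, where by adjusted p alone 5.33% of all features were higher and 7.98% lower. Their median change was -0.0343, with a range from -0.54 for rla0 to 0.30 for rpl12. All 7 proteasome and ubiquitin genes, each above the MAT1-1 level, had negative changes, where 52% of all features above it had. Their median was -0.208, and only psa5 passed the adjusted p, at -0.39 (0.0448). The changes of the 7 ran from -0.46 for psa7 to -0.16 for ubi4. In the step from 3 h to 6 h, which shares the 6 h arrays, they ran from 0.08 for ubi4 to 0.22 for psa5. Of 20 genes of chitin degradation 16 were above the MAT1-1 level at 9 h or 6 h, and 11 of these had negative changes, or 68.8%, beside 52% of all features above it, chi18-3 passing the adjusted p at -0.50 (0.0183), and chi18-6 had the highest change at 0.41.

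In the secretory list of 6, pdi1, for protein disulfide isomerase, was at 13.43 ± 0.032 at 9 h and 13.05 ± 0.15 at 6 h. Its change of 0.38 passed the adjusted p (0.0485), but not with 6 h and 9 h fitted alone (0.0523). The change of sar1 was -0.37 (adjusted p = 0.119). None of the 12 signalling genes passed the adjusted p, and their changes ran from -0.25 for pkac2 to 0.35 for ras2. Of all features 5.33% were higher and 7.98% lower by the adjusted p alone. Of the 4 light-response genes, the gene listed as phr1 passed the adjusted p at 0.64 (0.0289), and the photoreceptor gene blr2 had a change of -0.00271. The superoxide dismutase gene sod1 was at 8.40 ± 0.12 at 9 h and 9.31 ± 0.46 at 6 h, a difference of -0.91 (adjusted p = 0.0539). The mating-type gene mata1 had a change of -0.75 that did not pass (adjusted p = 0.149), and cat1 was at background at both times.

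**Figure D5:**
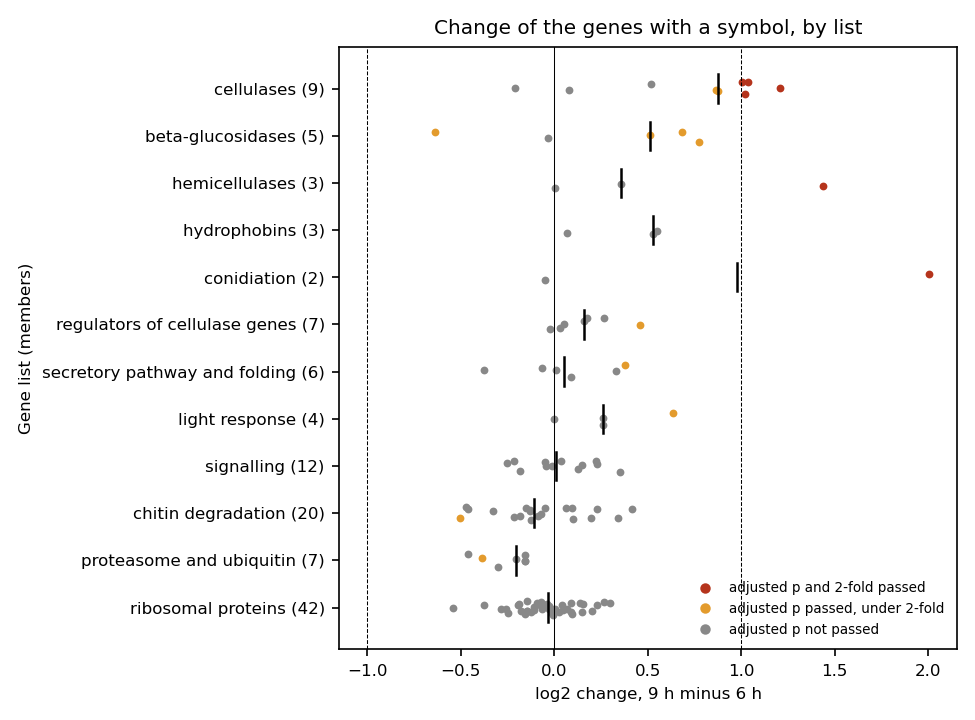
Log2 change from 6 h to 9 h of the genes in the lists shown, with the list median as a black bar and dashed lines at a 2-fold change. The oxidative stress, mating and sugar catabolism lists and genes with a symbol outside all lists are not drawn. The 6 red points, which passed both limits, are man5a, ooc1 and 4 cellulase genes; the 42 ribosomal protein genes lie between -0.54 and 0.30.

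Sugar catabolism held several of the mild negative changes. This list of 9 genes was put together after values were seen and was given no test. Of the 9, 4 were lower by adjusted p alone, where 7.98% of all features were, and the way the list was chosen makes this a description only. The L-arabinitol dehydrogenase gene lad1 was at 13.37 ± 0.074 at 9 h and 14.09 ± 0.050 at 6 h, and the xylitol dehydrogenase gene xdh1 at 9.81 ± 0.12 at 9 h and 10.58 ± 0.11 at 6 h, with changes of -0.72 and -0.77 (adjusted p = 0.00456 and 0.0326). The D-galacturonate reductase gene gar1 changed by -0.60 (adjusted p = 0.0079) and the galactose-1-phosphate uridylyltransferase gene gal7 by -0.50 (adjusted p = 0.0362). The changes of gal1, gal10, xyl1, gld1 and lxr1 were -0.29, -0.37, -0.19, 0.28 and -0.05 and did not pass. Outside these lists, the lowest change of a gene with a symbol was that of spt4, at 9.58 ± 0.21 at 9 h and 10.57 ± 0.23 at 6 h, with a log2 change of -0.99 (SE 0.24, adjusted p = 0.0349), also chosen after values were seen.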

How the data were processed

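Cy3-labelled total RNA of the replicas was measured on a NimbleGen gene array with 1 colour, per the labels' protocols. The authors deposited log2 expression values made with RMA, per the submitters' processing notes and the file headers. RMA subtracts a background, equalises the distributions of arrays and combines probes. The RMA version and the genome build of the array are not given in the sources used here. For each time the deposited table lists the mean of the log2 values and the SD, and for each feature 1 p-value. The authors' p-value was matched within 1% for 98.78% of features by an analysis of variance from these means and SDs for 2 replicas, adjusted by Benjamini-Hochberg, so the SD was taken as that of 2 replicas. The other deposited log2 table was identical in its means. RMA gives all arrays like distributions, so changes in the total amount of RNA are not visible. Changes of bright features may be understated on arrays, which was not tested here.

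Single replicas were rebuilt per feature as mean ± SD divided by the square root of 2. All 4 times entered 1 limma fit (limma 3.58.1, R 4.3.3) with no covariates. The 9 h minus 6 h contrast was tested with eBayes (residual degrees of freedom 4, prior 3.82), with Benjamini-Hochberg adjustment over 9126 features. All adjusted p-values of single features come from limma. Precision is limited by having 2 arrays at each time, and the median SE was 0.12. The computation was tested on simulated data. The members, lists and the alternatives were chosen with earlier results of these data known.

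Symbols and gene order come from the RefSeq table of assembly v2.0 of T. reesei QM6a, and 28 identifiers were not in it. The table names no scaffolds, so their ends were taken where start positions fall back. Genes were named by rule: the 12 largest rises and falls, all called features with a symbol, the members of runs, all members of the enzyme, hydrophobin and conidiation lists, and the extremes of each other list. Features named outside this rule, such as genes beside the runs, xyr1, cre1 and the sugar catabolism genes, were chosen after their values were seen. Not every gene under the rule is reported here. The list patterns for histones and for secondary metabolism matched 0 symbols. Several planned members of the cellulase and hemicellulase lists, among them the xylanase genes, also matched no feature with a symbol, so these lists are incomplete. No sequences were used here.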

Additional observations from a re-analysis of the deposited data

How the results depend on the processing

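The counts of 102 features higher and 74 lower, 176 in all, stayed within 1.5 times under the fit of 6 h and 9 h alone (135 and 86), a trended prior (108 and 76), quantile normalization of the means (84 and 78), median centring (102 and 72), features above the MAT1-1 level (108 and 75), features of the gene table (102 and 72), and 2-fold with replicas that do not overlap and no p (136 and 86). They moved with the other thresholds. At 1.5-fold 289 were higher and 389 lower (678 in all), at 4-fold 20 and 0 (20 in all), and by adjusted p alone 486 and 728 (1214 in all). With the dimmest features left out, so that 6844 were tested, 46 were higher and 34 lower (80 in all). Members of runs numbered 9 among rises and 6 among falls. With 0 uncalled genes allowed between members they numbered 3 and 0, with 5 allowed 12 and 9, and in the order of identifier numbers 3 and 3. Of 70 named features, 37 of them past both thresholds, every call was kept under the fit of 6 h and 9 h alone, the trended prior and median centring. By adjusted p alone, 23 of the 70 did not pass. In the fit of 6 h and 9 h alone 7 of these passed (cip1, hfb2, hfb3, mata1, psa7, rla0 and sod1, all under 2-fold). That fit also lost 1 that had passed, pdi1 (adjusted p = 0.0523 against 0.0485). With a trended prior 2 of the 23 passed (psa7 and sod1). Among the named features quantile normalization of the means ended 2 calls, cel12a at 0.999 (adjusted p = 0.0167) and TRIRE2_108975 at 2.49 (adjusted p = 0.0515), and the cause was not tested. Over all features that setting gave 162 calls, of which 155 were among the 176. Leaving out single replicas was not run, because the rebuilt values do not show which replicas of different features belong to the same array. No paired analysis was possible because the table carries no replicate numbers. Signal near the MAT1-1 level limits the folds of 5 rises and 8 falls.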

Other observations

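Past a 2-fold change but not past the adjusted p were 48 features, 36 higher and 12 lower at 9 h, and in 46 of them the replicas of the 2 times did not overlap. The largest SD at 9 h was that of TRIRE2_34413, at 2.28 on the log2 scale. Its replicas lay at 7.59 and 10.81 at 9 h and at 8.21 and 8.87 at 6 h, so they overlap, and its difference of 0.66 did not pass the test (adjusted p = 0.643 by limma). At 6 h the largest SD was 0.89, that of TRIRE2_71177.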
